A study of Mus musculus with 6 samples.

Results

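The cells described here were Lgr5-negative cells with a transcript profile of DNA synthesis (S phase), taken from single-cell RNA sequencing of mouse ileal crypts. Among 14885 barcodes kept as cells, 519 (3.49%) met the rule, of which 285 came from Fpr2f/f libraries and 234 from Fpr2VKO libraries. A barcode was kept when it held at least 2000 UMIs (unique molecular identifiers, each marking 1 captured transcript) and 500 genes and at most 20% mitochondrial UMIs. A member had no Lgr5 UMI, at least 4 detected genes of the S-phase set Mcm4, Mcm5, Mcm6, Pcna, Uhrf1, Dtl, Hells and Cdt1 with a sum of at least 0.15% of its UMIs, and less than 0.1% of its UMIs in the mitotic set Mki67, Top2a, Ccnb1, Cdk1, Birc5, Ube2c, Cenpf and Hmmr. The members were thus chosen by the measured UMIs of these 17 genes, whose levels are given as description only.

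Epithelial cells were dissociated from ileal crypts, stained for the surface protein EpCAM and sorted, and libraries were made on the MobiNova-100 microfluidic platform. The 3 Fpr2f/f libraries came from mice whose Fpr2 gene is flanked by loxP sites and carries no deletion, labelled WT. The 3 Fpr2VKO libraries came from Fpr2f/f mice crossed with Villin-Cre mice, in which Cre is driven by a promoter active throughout the intestinal epithelium from the crypt to the villus, so stem cells and their progeny are targeted together. Both groups carried the floxed allele on a C57BL/6J background and the labels name no treatment. Cre is named for Fpr2VKO mice only, so an effect of Cre and an effect of the deletion cannot be told apart. The study's legends give as many mice as libraries in each group, although the labels do not tie a library to a mouse, and p-values measure the spread between these libraries.

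Transit-amplifying cells are the rapidly dividing progeny of Lgr5-positive crypt base stem cells, and they divide several times before they become absorptive or secretory cells. Before S phase, origins of replication are licensed by loading of the MCM helicase with the help of Cdc6 and Cdt1. Cyclin E and cyclin-dependent kinase activity then release E2F transcription factors from the retinoblastoma protein, and E2F activates genes for the helicase, the polymerases and the supply of deoxynucleotides. Fpr2, the gene deleted in the mutant mice, encodes a G protein-coupled receptor for formyl peptides.

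The promoters of the genes that define the cells are shown because E2F is known to act through short elements in such promoters. The letters TTTCCCGC, TTTGGCGC, TTTCGCGC and TTTGCCGC, written in the classical form of an E2F element, were searched on both strands in RefSeq promoter sequences (GRCm38.p6) running from 250 bases before to 50 bases after a start site. Such a motif was present in 6 of 8 promoters (75.0%) of the 7 S-phase set genes with an entry, Mcm5, Mcm6, Uhrf1, Dtl, Hells and Cdt1, compared with 744 of 32851 promoters (2.26%) in the whole table. Pcna and 1 of the 2 Uhrf1 promoters did not hold these letters in this window. Below are 3 of the promoters, 5′ to 3′ on the strand of the gene, with motif letters in capitals on either strand. In Mcm6 and Mcm5, matches on opposite strands overlap in a shared run of capitals.
Mcm6, chr1:128359656-128359955, minus strand: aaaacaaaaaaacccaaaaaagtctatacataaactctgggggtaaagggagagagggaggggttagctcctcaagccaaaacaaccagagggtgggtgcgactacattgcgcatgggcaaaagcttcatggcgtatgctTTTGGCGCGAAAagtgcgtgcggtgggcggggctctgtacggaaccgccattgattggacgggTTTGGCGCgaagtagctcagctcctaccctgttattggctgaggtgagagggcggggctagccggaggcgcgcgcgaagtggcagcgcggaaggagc
Mcm5, chr8:75109259-75109558, plus strand: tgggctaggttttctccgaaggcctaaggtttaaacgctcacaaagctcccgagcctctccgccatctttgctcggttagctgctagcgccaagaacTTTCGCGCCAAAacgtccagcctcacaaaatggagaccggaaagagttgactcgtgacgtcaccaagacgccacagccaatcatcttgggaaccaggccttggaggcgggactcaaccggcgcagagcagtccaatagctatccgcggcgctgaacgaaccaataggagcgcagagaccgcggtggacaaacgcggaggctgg
Dtl, chr1:191575495-191575794, minus strand: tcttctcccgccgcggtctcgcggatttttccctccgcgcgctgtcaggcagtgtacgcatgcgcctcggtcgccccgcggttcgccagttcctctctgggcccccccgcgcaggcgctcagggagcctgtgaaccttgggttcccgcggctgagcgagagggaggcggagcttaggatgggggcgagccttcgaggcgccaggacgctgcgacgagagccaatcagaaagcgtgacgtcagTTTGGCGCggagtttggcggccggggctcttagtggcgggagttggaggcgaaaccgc

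The Mcm6 promoter held 3 matches and the Mcm5 promoter 2, while the Dtl promoter held 1, just upstream of the start site. Among genes that were not used to choose the cells, the motif was present in 8 of 25 promoters (32.0%) of origin licensing and helicase genes, 8 of 27 (29.6%) of replication fork and polymerase genes, 5 of 16 (31.3%) of fork checkpoint and repair genes and 4 of 19 (21.1%) of chromatin copying genes. It was present in only 1 of 22 promoters (4.55%) of nucleotide synthesis genes, 1 of 8 (12.5%) of the mitotic set and 0 of 18 of later mitosis genes. A match describes letters in a window and was not tested as a binding site.

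The 6 libraries held between 90142126 and 189516114 UMIs over all listed barcodes, and 1720 to 4198 barcodes per library were kept. The mitochondrial limit alone removed 64.3% to 84.5% of the barcodes left by the UMI and gene minimums, and this share overlapped between genotypes. Among members left by the limit, the median mitochondrial percent was higher with the deletion. It was 13.6%, 12.3% and 13.6% for Fpr2VKO libraries 1 to 3, against 11.5%, 11.4% and 12.1% for Fpr2f/f libraries 1 to 3, without overlap. Lgr5-positive cells chosen by the same S-phase and mitotic limits, 8 to 37 per library, showed this as well. Their medians were 11.3%, 9.90% and 10.9% in Fpr2f/f libraries 1 to 3 and 15.4%, 11.7% and 12.5% in Fpr2VKO libraries 1 to 3. For Lgr5-negative G2/M cells, defined below, and other kept cells these medians overlapped. How far this content bears on the genotype comparisons was not tested. No UMI of Fpr2 was counted in any barcode of any library, which allows at most 0.0158 to 0.0333 CPM (UMIs of a gene per 1000000 UMIs summed) per library, so the deletion could not be checked in these counts. Among kept cells, 109 barcodes occurred in more than 1 library, and among members no barcode did. A doublet score marked 12 members, at most 3 in a library.

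The depth of members varied widely within each library. Their median UMI count was 25859, 7995 and 25537 in Fpr2f/f libraries 1 to 3 and 36937, 23552 and 27327.5 in Fpr2VKO libraries 1 to 3. Fpr2f/f library 2 stood apart, because 50 of its 89 members (56.2%) had fewer than 10000 UMIs, compared with 15.5% to 37.4% in the other 5 libraries. Within each library the other kept cells had a lower median than the members, with medians from 4275 to 10621 UMIs. UMIs summed over members ranged from 1477261 in Fpr2VKO library 3 to 2494887 in Fpr2VKO library 1.

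**Figure D1:**
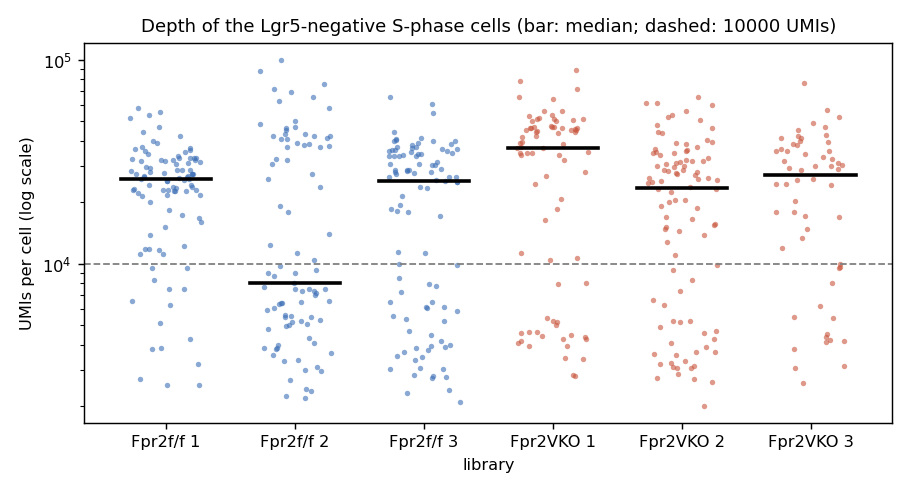
UMIs per cell on a log scale for each of the 519 Lgr5-negative S-phase cells, by library, with a bar at the library median and a dashed line at 10000 UMIs. Every library holds cells on both sides of the line, and the median of Fpr2f/f 2 (7995) is the one below the line.

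The rule drew its limits through a continuum. There were 77 members with exactly 4 detected S-phase genes and 63 Lgr5-negative cells that met both sum limits with 3. Similarly, 125 members had an S-phase sum of 0.15% to 0.18%, while 143 cells that met the other limits fell between 0.12% and 0.15%. The mitotic limit separated 66 members with 0.08% to 0.1% from 48 cells with 0.1% to 0.12%. In all, 744 Lgr5-negative cells met the S-phase limits, and those with a mitotic sum of at least 0.1% were not members. Any Lgr5-negative cell with such a mitotic sum and at least 4 of the 8 mitotic genes detected was classed as a G2/M cell. All 8 S-phase genes were detected in 268 members, and 37 members had no UMI of the mitotic set. The median S-phase sum of a member was 0.223% of its UMIs.

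The genes of the rule had the levels that it asked for. Uhrf1, which recruits the maintenance DNA methyltransferase to replicated DNA, had 279.8, 285 and 286 CPM in Fpr2f/f libraries 1 to 3 and 284, 257 and 279.6 CPM in Fpr2VKO libraries 1 to 3, with a mean of 22.4 CPM in other cells. Dtl, the substrate receptor of the ligase that destroys Cdt1 during S phase, was at 124 to 139 CPM in members of all libraries and averaged 14.2 CPM in other cells. Pcna, the sliding clamp, averaged 1094 CPM in members, 354 CPM in G2/M cells and 174 CPM in other cells. Lgr5-positive S-phase cells, chosen with the same S-phase and mitotic limits, had a mean Pcna level of 1115 CPM. Since the rule held members of both genotypes to the same limits on these genes, their genotype differences (median log2 fold change -0.09 for the 8 S-phase genes and -0.14 for the 8 mitotic genes) are no test of an effect.

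The labelled state was then checked against genes of the crypt. Epcam, the gene of the sorting antigen, ranged from 1319.5 to 1405 CPM in members of the 6 libraries. Absence of Lgr5 is a weak criterion at low depth. After thinning to 5000 UMIs per cell, 61.0% of the Lgr5-positive S-phase cells (library means, n = 6) still showed an Lgr5 UMI, so a count of 0 in a shallow member does not show that Lgr5 was absent. Olfm4, a marker of stem cells and their early progeny, was detected in 78.3% of thinned members (85.7% without thinning), compared with 94.9% of Lgr5-positive S-phase cells and 34.9% of other cells. The members were thus Lgr5-negative by count but retained Olfm4 transcripts, and they are called Lgr5-negative S-phase cells below.

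Many of the leading genes that had no part in the choice of the cells belonged to the replication machinery. Ranked by the mean log2 ratio of CPM to other kept cells, with 1 CPM added to each value, the 20 leading genes outside the rule included 13 from lists of origin licensing, fork, nucleotide, cell cycle entry, checkpoint and chromatin genes. All comparisons between cell classes are descriptions without a test, since the classes were cut from the same cells. Of 3372 genes with at least 50 CPM in members, 2182 outside the rule were higher than in other cells in all 6 libraries, so a higher level alone was common.

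The leading gene was Fam111a, whose product acts at replication forks, with 63.0 to 101 CPM across libraries and a mean of 85.5 CPM compared with 7.49 CPM in other cells (log2 ratio 3.38 ± 0.16, SD, n = 6). Rrm2, the S-phase subunit of ribonucleotide reductase, had 161, 111 and 127 CPM in Fpr2f/f libraries 1 to 3 and 154, 122 and 159 CPM in Fpr2VKO libraries 1 to 3. Its mean was 139 CPM in members and 14.4 CPM in other cells (log2 ratio 3.19 ± 0.19). The genotype groups overlapped for both genes, and every library of members stood above the mean of other cells. Ung, which removes uracil from DNA, was the sharpest of the leading genes relative to G2/M cells, at 65.4 CPM in members and 8.12 CPM in Lgr5-negative G2/M cells (log2 ratio 2.88). The remaining leading genes were Slfn9, Mcm3, Ccne2, Atad5, Mcm2, Tipin, E2f8, Pola1, Pole2, Dut, Ncapg2, Wdr76, Rpa2, Hat1, Rfc3, Mms22l and Rrm1, with log2 ratios from 2.98 down to 2.45.

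Among origin licensing and helicase genes, all 25 had a higher mean log2 level in members than in other cells (median log2 ratio 1.76), and 24 were higher in 6 of 6 libraries. Over all 9869 genes that passed the filter on low counts, 6836 were higher on average and 4444 in 6 of 6 libraries (median log2 ratio 0.27). Mcm2 and Mcm3, subunits of the replicative helicase, averaged 106 and 110 CPM in members compared with 14.5 and 13.1 CPM in other cells and 29.2 and 31.3 CPM in Lgr5-negative G2/M cells. Gmnn, the inhibitor of Cdt1, averaged 124 CPM in members and 82.6 CPM in G2/M cells, a smaller step than the helicase subunits. Dbf4, the activator of the Cdc7 kinase that fires origins, ran the other way and was lower in members (33.7 CPM) than in G2/M cells (83.7 CPM) in all 6 libraries.

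At the fork, all 27 genes were higher than in other cells in 6 of 6 libraries (median log2 ratio 1.71), and 21 were higher than in G2/M cells in 6 of 6 (median 0.61). Of all 9869 genes that passed the filter, 1654 were higher than in G2/M cells in 6 of 6 libraries (median -0.02). Pola1, the catalytic subunit of the priming polymerase, had 161, 175 and 247 CPM in Fpr2f/f libraries and 201, 188 and 230 CPM in Fpr2VKO libraries, and the groups overlapped. Its mean in G2/M cells was 61.7 CPM. Lig1, which joins Okazaki fragments, averaged 138 CPM in members and 76.4 CPM in G2/M cells. Top1, which relieves torsion ahead of the fork and also of transcription, was close between classes, with 348 CPM in members, 406 CPM in G2/M cells and 308 CPM in other cells.

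Nucleotide supply followed the same order, with a median log2 ratio of 0.49 to G2/M cells. Of 21 genes, 20 were higher in members than in other cells in 6 of 6 libraries (median log2 ratio 1.76). The exception was Samhd1, which degrades deoxynucleotides, with a mean of 19.7 CPM in members and 32.5 CPM in other cells, lower in all 6 libraries. Dut, which clears dUTP, averaged 268 CPM in members, 117 CPM in G2/M cells and 44.3 CPM in other cells. Rrm1, the large ribonucleotide reductase subunit, averaged 125 CPM in members and 90.2 CPM in G2/M cells.

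Regulators of entry into S phase, of which 22 of 23 passed the filter on low counts and 19 were higher than in other cells in 6 of 6 libraries (median log2 ratio 1.27), differed in their step to mitosis. Ccne2, a cyclin E, averaged 82.5 CPM in members, 21.2 CPM in G2/M cells and 10.2 CPM in other cells. Ccnd1 and Ccnd2, the D-type cyclins that respond to mitogens, averaged 336 and 680 CPM in members and 257 and 572 CPM in G2/M cells, and both were higher in members in 6 of 6 libraries. Ccna2, a cyclin that peaks later, showed the reverse, with 68.7 CPM in members and 241 CPM in G2/M cells. The cyclin-dependent kinase inhibitor Cdkn1a averaged 31.0 CPM in members and 119.6 CPM in other cells and was lower in all 6 libraries.

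Chromatin and cohesion genes did not move as 1 block relative to mitosis. All 18 chromatin copying genes exceeded other cells in 6 of 6 libraries (median log2 ratio 1.43). Hat1, a histone acetyltransferase of new histones, was 126 CPM in members and 54.7 CPM in G2/M cells, whereas Hmgb2, an abundant chromatin protein of dividing cells, was 836 CPM in members and 1837 CPM in G2/M cells. Of 9 cohesion genes, 1 exceeded G2/M cells in all 6 libraries. In the list of 20 later mitosis genes, which were not part of the rule, the median log2 ratio to G2/M cells was -2.03 and only Pttg1 was not lower on average.

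**Figure D2:**
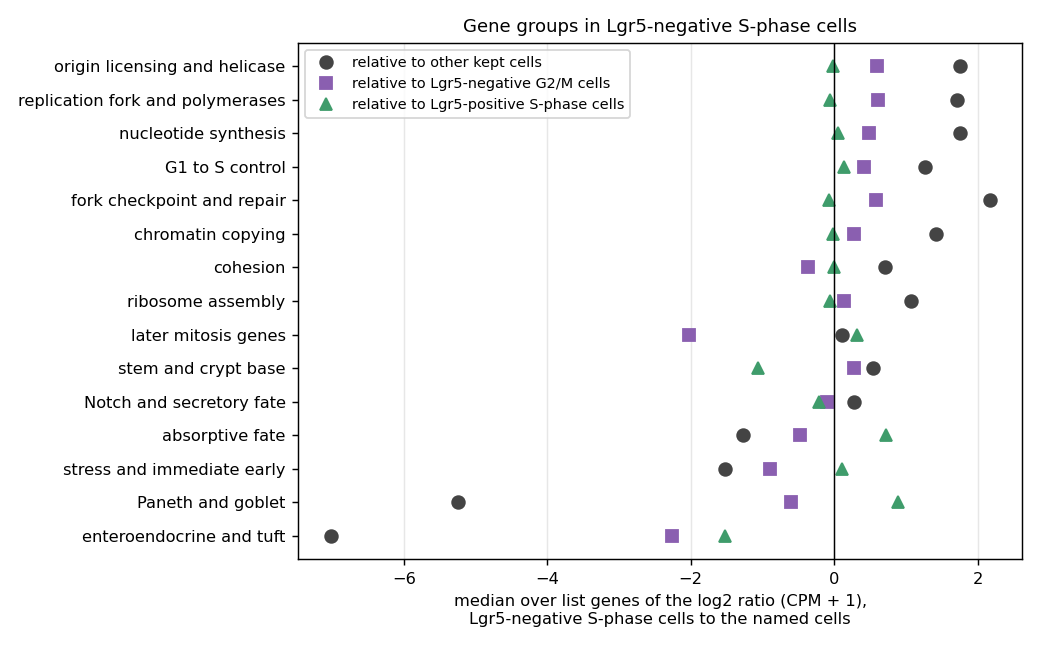
Median over the genes of each list that passed the filter on low counts of the log2 ratio of CPM (1 CPM added) in Lgr5-negative S-phase cells to other kept cells (circles), Lgr5-negative G2/M cells (squares) and Lgr5-positive S-phase cells (triangles). Replication lists lie above 0 for circles and squares and near 0 for triangles, and the stem and crypt base list lies at -1.06 for triangles.

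Relative to the 150 Lgr5-positive S-phase cells, the replication lists were level and the stem list was not. The median log2 ratio was -0.01 for origin licensing, -0.05 for fork genes and 0.06 for nucleotide synthesis. Of the 23 stem and crypt base genes, 20 passed the filter on low counts, 0 of these 20 were higher on average in Lgr5-negative cells, and the median log2 ratio was -1.06. Olfm4 had 1496, 1663 and 2105 CPM in Fpr2f/f members and 1936, 1620 and 2786 CPM in Fpr2VKO members, with a mean of 8334 CPM in Lgr5-positive S-phase cells. Every one of the 6 libraries was lower in members, and the genotype groups overlapped. Ascl2, a transcription factor of the stem cell programme, averaged 13.5 CPM in members and 62.1 CPM in Lgr5-positive S-phase cells, and Slc12a2 averaged 373 and 931 CPM. Lgr5 itself split these classes, so these values are no independent evidence, and Fpr2f/f library 1 held only 8 Lgr5-positive S-phase cells.

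Absorptive genes had a median log2 ratio of 0.73 to Lgr5-positive S-phase cells and -1.27 to other cells over the 19 of 20 genes that passed the filter. Of these 19, 14 were higher than in Lgr5-positive S-phase cells on average and 7 in 6 of 6 libraries. Over all 9869 genes tested, 5731 were higher than in Lgr5-positive S-phase cells on average and 827 in 6 of 6 libraries. The 14 Paneth and goblet genes had medians of 0.89 to Lgr5-positive S-phase cells and -5.25 to other cells. Of these, 14 were higher than in Lgr5-positive S-phase cells on average and 4 in 6 of 6 libraries. In every library more members than Lgr5-positive S-phase cells were under 10000 UMIs (56.2% against 28.6% in Fpr2f/f library 2). The Paneth gene Lyz1 averaged 439 CPM in members under 10000 UMIs and 88.4 CPM in deeper ones, higher in 6 of 6 libraries. The goblet gene Agr2 averaged 430 and 495 CPM. How far depth bears on these ratios was not tested. Fabp2, an absorptive fatty acid-binding protein, averaged 390 CPM in members, 260 CPM in Lgr5-positive S-phase cells and 673 CPM in other cells. Sis, encoding the brush border enzyme sucrase-isomaltase, averaged 63.1, 22.4 and 687 CPM in the same order. Both belonged to the 7 genes higher in members in 6 of 6 libraries. In the Notch and secretory fate list, 3 of the 8 genes that passed the filter were higher than in Lgr5-positive S-phase cells on average and 1 in 6 of 6 libraries (median log2 ratio -0.21). Atoh1, the master regulator of that fate, averaged 13.4 CPM in members, 3.06 CPM in Lgr5-positive S-phase cells and 31.5 CPM in other cells. The member level rested on few cells. In Fpr2f/f libraries 1 to 3, 1 cell each held 10 of 18, 14 of 16 and 27 of 29 Atoh1 UMIs. In Fpr2VKO libraries 1 to 3, 1 cell each held 4 of 6, 21 of 53 and 16 of 37.

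A UMI of Dll1, a Notch ligand of secretory progenitors, was found in 85 of 519 members, a UMI of Atoh1 in 24 and either in 94. By library, either gene was found in 14 of 97, 11 of 89 and 19 of 99 members of Fpr2f/f mice and in 13 of 78, 22 of 98 and 15 of 58 of Fpr2VKO mice. At 5000 UMIs, Dll1 was detected in 6.0% of members (16.6% without thinning) and 12.9% of other cells, so the thinned share in members was not above that in the rest of the crypt. Paneth genes were low relative to other cells, with Lyz1 at 112 CPM in members and 10928 CPM elsewhere. At 5000 UMIs, Lyz1 was detected in 7.78%, 59.4% and 19.5% of members of Fpr2f/f libraries and 37.1%, 47.4% and 46.9% of Fpr2VKO libraries, compared with 56.3% of other cells on average, and whether these UMIs arose in the members was not tested.

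Shallow and deep members differed in content. Over the 6 libraries, Peak1, whose counts the study followed in immature cells, averaged 35538 CPM in members under 10000 UMIs and 3977 CPM in deeper members, and it was higher in the shallow members in 6 of 6 libraries. Malat1, a nuclear RNA, was 4326 and 1558 CPM, and Jun, an immediate early gene, was 322 and 71.9 CPM. The linker histone gene Hist1h1e was 234 and 13.6 CPM. In the opposite direction, Olfm4 was 1243 CPM in shallow and 1989 CPM in deep members and Rrm2 93.3 and 142 CPM, each lower in the shallow members of 6 libraries. Genes of the rule went both ways and are given as description only, with Pcna at 729 and 1122 CPM and Hells at 370 and 292 CPM. Peak1, Malat1, Jun and Hist1h1e were named after their values were seen. Over all members, Peak1 reached 14937 CPM in Fpr2f/f library 2, where most members were shallow, compared with 4147 to 7475 CPM in the other 5 libraries.

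The study asked whether loss of Fpr2 alters how crypt cells proliferate. It reported fewer Ki67-positive and BrdU-positive crypt cells in Fpr2VKO mice, and fewer transit-amplifying cells in these libraries. With Fpr2 deleted in Lgr5-positive stem cells, it reported more of these cells in G1 phase by flow cytometry. The share of Lgr5-negative S-phase cells among kept cells is another measure and does not test those results. Lgr5-negative S-phase cells made up 5.09%, 2.12% and 3.93% of kept cells in Fpr2f/f libraries 1 to 3 and 3.63%, 4.10% and 3.37% in Fpr2VKO libraries 1 to 3. The Fpr2VKO values lay inside the range of Fpr2f/f values. The means were 3.71% ± 1.5 (SD, n = 3) and 3.70% ± 0.37, a difference of -0.01 percentage points (exact permutation test, two-sided, p = 1). With 3 libraries against 3, an exact permutation test cannot go below p = 0.1. The sign of this difference depended on single libraries, and it was 0.68 points without Fpr2f/f library 1 and -0.81 points without Fpr2f/f library 2.

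Members were also set against Lgr5-negative G2/M cells. Cells above the mitotic limit did not count as S phase there, even if they met the S-phase limits. As a share of Lgr5-negative cycling cells, that is members plus Lgr5-negative G2/M cells, the members were 17.3% ± 6.64 in Fpr2f/f and 15.6% ± 1.56 in Fpr2VKO libraries (difference -1.65 points, exact permutation p = 0.8, adjusted over 4 shares p = 1). This difference was -5.49 points without Fpr2f/f library 2, 0.37 without Fpr2f/f library 1 and 0.15 without Fpr2f/f library 3. Lgr5-positive S-phase cells were 0.66% ± 0.35 and 1.54% ± 0.61 of kept cells (exact permutation p = 0.2, adjusted p = 0.6), and the difference of 0.88 points was 0.15 under a mitochondrial limit of 10%, 0.30 under 40%, 0.57 after thinning and 0.58 without Fpr2VKO library 3. Lgr5-negative G2/M cells were 17.9% ± 2.67 of kept cells in Fpr2f/f and 2.12 points more in Fpr2VKO libraries (SD 0.46, exact permutation p = 0.3, adjusted p = 0.6). The G2/M difference was 0.61 points without Fpr2f/f library 3, and under a mitochondrial limit of 10% it was -5.85. The groups overlapped for all 4 shares. A mitochondrial limit of 10% gave shares of members of 6.10%, 2.87% and 3.83% for Fpr2f/f libraries 1 to 3, all above the Fpr2VKO shares of 2.82%, 2.17% and 2.41%. The difference was then -1.80 points, with an exact permutation p of 0.1, the smallest this design can give. That limit left out most members, whose median mitochondrial percent was above 10% in every library, so these shares rest on fewer cells.

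**Figure D3:**
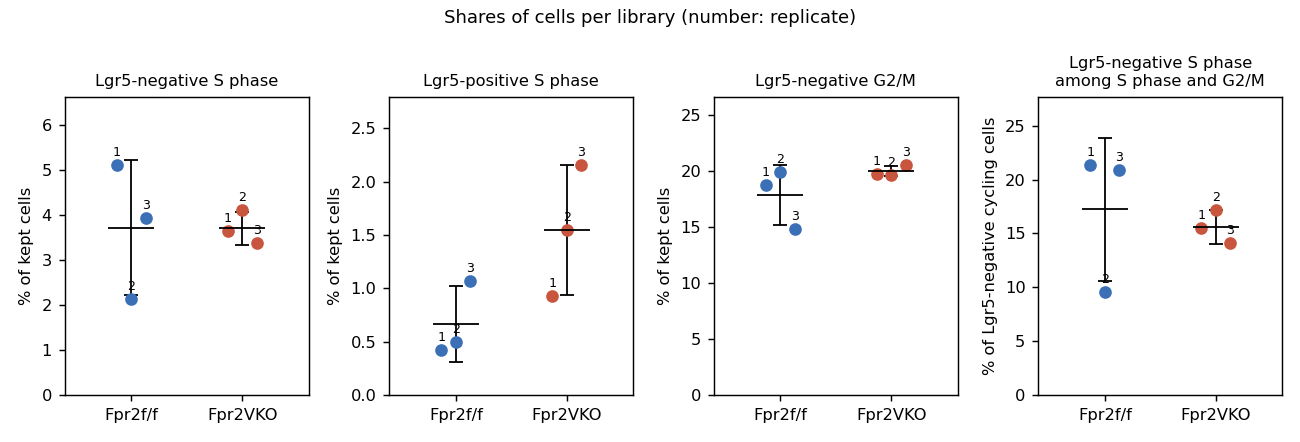
Percent of kept cells in each class, and percent of S-phase cells among Lgr5-negative cycling cells, with 1 point per library (numbers are replicates), the group mean as a horizontal bar and the SD as error bars (n = 3). The Fpr2VKO libraries lie within the range of the Fpr2f/f libraries for Lgr5-negative S-phase cells.

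Between genotypes, the summed counts of Lgr5-negative S-phase cells differed in few genes. Of 9869 genes tested with the edgeR quasi-likelihood test, 4 (0.0405%) passed a Benjamini-Hochberg adjusted p of 0.05, namely Mt1, which was higher in Fpr2VKO (0.0101% of genes), and Cd3e, Cd3d and Ikzf2, which were lower (0.0304%). DESeq2 called 6 genes (0.0608%). The edgeR count was 24, 8 and 22 without Fpr2f/f library 1, 2 or 3 and 16, 8 and 6 without Fpr2VKO library 1, 2 or 3. At an unadjusted p of 0.05, 508 genes (5.15%) passed, 250 higher and 258 lower. The median log2 fold change over all genes was close to 0.

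Mt1 encodes a metallothionein, a small protein that binds zinc and copper, and lies at chr8:94179082-94180327 on the plus strand (GRCm38). It had 403, 478 and 610 CPM in Fpr2f/f libraries 1 to 3 and 1204, 1128 and 1241 CPM in Fpr2VKO libraries 1 to 3. The groups did not overlap, which held for 9.92% of all genes tested, 5.5% with higher and 4.42% with lower values in Fpr2VKO. The log2 fold change was 1.25 ± 0.14 (SE) with an adjusted p of 2.35e-06 (edgeR). At 5000 UMIs per cell, Mt1 was detected in 77.8%, 75.4% and 92.2% of Fpr2f/f members and in 96.8%, 100% and 100% of Fpr2VKO members (72.6% of other cells on average). Without thinning, a UMI was found in 92 of 97, 70 of 89 and 92 of 99 members of Fpr2f/f libraries and in 75 of 78, 93 of 98 and 57 of 58 members of Fpr2VKO libraries, shares near saturation that do not show how the rise was distributed over cells. Mt1 was called in 16 of 17 alternative settings, with log2 fold changes from 0.96 to 1.40, and was not called under a mitochondrial limit of 10% (adjusted p = 0.0999, edgeR). That limit left out most members, and 6643 genes could be tested. Fewer counts and a lower mitochondrial content cannot be told apart there. Whether the level of Mt1 follows the mitochondrial content of members, which differed between genotypes, was not tested.

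The other tested metallothionein and zinc genes were not called. Mt2, its neighbour at chr8:94172664-94173568, had 48.4, 38.0 and 99.1 CPM in Fpr2f/f and 46.1, 39.1 and 34.5 CPM in Fpr2VKO members, with overlapping groups (log2 fold change -0.63 ± 0.36, adjusted p = 0.996, edgeR). The zinc sensor Mtf1 was between 19.2 and 23.0 CPM in all libraries (log2 fold change 0.08 ± 0.22). Of the 6 tested genes of the list, 1 was called, with a median log2 fold change of 0.15 that ranged from 0.09 without Fpr2f/f library 1, Fpr2f/f library 3 or Fpr2VKO library 1 to 0.26 without Fpr2f/f library 2. In Lgr5-negative G2/M cells, Mt1 also rose, with 328, 309.8 and 435 CPM in Fpr2f/f and 1071, 1099.8 and 1194 CPM in Fpr2VKO libraries (adjusted p = 0.000337, edgeR), and the genotype effect in S-phase minus that in G2/M cells was -0.38 ± 0.10 on the log2 scale (adjusted p = 0.822, edgeR).

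Cd3e, Cd3d and Ikzf2, which encode chains of the T cell receptor complex and a lymphocyte transcription factor, were lower in Fpr2VKO, and the difference rested on single cells. Cd3e had 4.59, 14.6 and 6.91 CPM in Fpr2f/f and 0, 0.445 and 0 CPM in Fpr2VKO members (log2 fold change -5.30 ± 0.85, adjusted p = 0.00201, edgeR). Of its 54 UMIs in Fpr2f/f members, 10, 28 and 15 lay in 1 cell of library 1, 2 and 3, and the same 3 cells held 28, 73 and 52 UMIs of Ikzf2. These cells had 0, 3 and 0 UMIs of Epcam, compared with library medians of 13.0 to 46.0, so they did not match the epithelial label. Another cell with immune transcripts, with 15 Ptprc UMIs and no Epcam, was a member in Fpr2VKO library 1.

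Counts this low give wide ratios. The summed Cd3e level was 51.8 times higher in Fpr2f/f, with an exact 95% interval from 8.91 to 2080 for counting error only, on 54 UMIs against 1. Cd3d was at least 14.7-fold higher in Fpr2f/f when the 0 UMIs of Fpr2VKO were set to a floor of 3 over the group. Without the 4 cells that held at least 10 UMIs of Ptprc, Cd3e, Cd3g and Cd8a, 1 of 9826 genes (0.0102%) was called, which was Mt1 (log2 fold change 1.23 ± 0.14, adjusted p = 1.34e-06, edgeR). Cd3e then had 1 UMI and Ikzf2 16 UMIs in Fpr2f/f members in total, and none of the 3 genes was abundant enough to be tested. Of the 10 immune list genes, Lyz2 had no UMI in members, and the summed level of the list ranged from 83.9 to 924 CPM in Fpr2f/f and from 1.35 to 19.6 CPM in Fpr2VKO libraries. With all members included, Gzma, a granzyme of cytotoxic lymphocytes, had 89.0, 679 and 60.4 CPM in Fpr2f/f and 4.41, 1.33 and 0.677 CPM in Fpr2VKO libraries, with groups that did not overlap (adjusted p = 0.845, edgeR). It was called by DESeq2 and, without Fpr2f/f library 2, by edgeR.

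**Figure D4:**
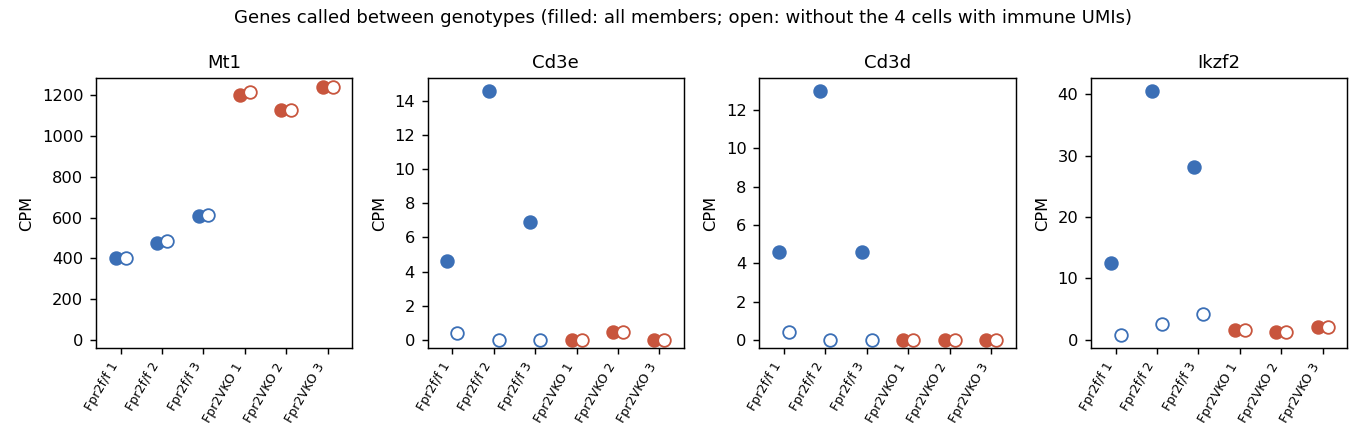
CPM per library of the 4 genes called between genotypes, over all members (filled) and without the 4 members with at least 10 immune UMIs (open). Mt1 keeps its separation, from 404 to 615 CPM in Fpr2f/f and from 1128 to 1241 CPM in Fpr2VKO, and the other genes fall to at most 4.18 CPM.

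The replication programme itself showed no call between genotypes. Members of both genotypes were chosen by the same limits on the S-phase and mitotic sets. Replication and mitosis genes that vary together with these sets may thereby have been held alike. The absence of a call therefore does not show that the deletion leaves them unchanged. In the origin licensing and helicase list, 0 of 25 genes passed, 0 had an unadjusted p under 0.05, and the median log2 fold change was -0.08. That median ran from -0.09 to 0.0009 when 1 library was left out, so it gives no direction. Individual values ran from -0.35 for Recql4 to 0.20 for Cdc6. Cdc6, the helicase loader, had 41.3, 40.1 and 37.8 CPM in Fpr2f/f and 45.3, 45.3 and 48.1 CPM in Fpr2VKO members, groups that did not overlap (log2 fold change 0.20 ± 0.17, adjusted p = 0.996, edgeR). Mcm7, another helicase subunit, had 143, 167 and 163 CPM and 148, 141 and 161 CPM, and its groups overlapped.

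For replication fork and polymerase genes, 0 of 27 passed and the median was 0.05. The lowest p belonged to Rfc1, the large subunit of the clamp loader, with 102, 145 and 114 CPM in Fpr2f/f and 93.4, 82.2 and 108 CPM in Fpr2VKO members (log2 fold change -0.37 ± 0.15, adjusted p = 0.851, edgeR). Nucleotide synthesis (0 of 21, median 0.06), S-phase entry (0 of 22, median 0.01), checkpoint and repair (0 of 21, median 0.04) and cohesion (0 of 9, median 0.04) likewise held no call. These 4 medians and that of the fork genes turned sign when single libraries were left out, with ranges of -0.02 to 0.09, -0.04 to 0.05, -0.06 to 0.09, -0.04 to 0.11 and, for the fork genes, -0.04 to 0.09, so they give no direction. The median SE of a gene in these lists was 0.14 to 0.18 on the log2 scale, which limits the shifts that could be detected. Of 20 later mitosis genes, 0 passed and 17 had estimates below 0 (median -0.15), compared with 4937 of 9869 of all genes. That median was -0.07 without Fpr2f/f library 1 and -0.33 without Fpr2f/f library 3, and it was 0.11 over the 9 genes that could be tested after thinning.

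Several genes of the lists had an unadjusted p under 0.05 and did not pass the adjustment. In the chromatin list, Ssrp1, a subunit of the histone chaperone FACT, had 153, 159 and 146 CPM in Fpr2f/f and 129, 121 and 129 CPM in Fpr2VKO members (log2 fold change -0.29 ± 0.13, adjusted p = 0.922, edgeR). Its groups did not overlap. Hmgb2 had a log2 fold change of -0.30 ± 0.15 with overlapping groups, and the median of the 18 chromatin genes was -0.01. That median ran from -0.04 to 0.01 when 1 library was left out and from -0.16 to 0.02 over all alternative settings. In the ribosome assembly list, 14 of 16 genes had estimates below 0 (median -0.18), compared with 4937 of 9869 of all genes, and 0 were called. Nolc1, a nucleolar phosphoprotein, had the lowest p, with 143, 127 and 124 CPM in Fpr2f/f and 109, 113 and 92.7 CPM in Fpr2VKO (log2 fold change -0.33 ± 0.14, adjusted p = 0.858, edgeR).

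The study reported the cell cycle genes below as lower in its stem cell cluster and by RT-qPCR in crypts. The genes of immature cells and ribosomal proteins were lower in its immature cell cluster. It used thresholds of its own in those clusters. Here they were tested in Lgr5-negative S-phase cells with library sums, and the main test gave no call. Some alternatives with all libraries did call genes of the immature and ribosomal list, as given below. Since the study chose these genes in these libraries, they are no independent evidence of direction. Of its 16 cell cycle genes, 0 passed, 12 had estimates below 0 (4937 of 9869 of all genes) and the median was -0.15, but Mcm4, Mcm5, Mcm6, Pcna and Mki67 are among them and were used to choose the members. The median was -0.08 without Fpr2f/f library 1. Ccne1, with 27.1, 34.3 and 25.8 CPM in Fpr2f/f and 22.4, 25.8 and 17.6 CPM in Fpr2VKO members, had the lowest p (log2 fold change -0.39 ± 0.22, adjusted p = 0.967, edgeR). Of its 14 genes of immature cells and ribosomal proteins, 13 had estimates below 0 (4937 of 9869 of all genes) and the median was -0.46. At an unadjusted p under 0.05, 5 were lower (258 of 9869 of all genes, 2.61%). Without Fpr2f/f library 1 the median was -0.63, with 3 calls and 11 genes at an unadjusted p under 0.05 (24 and 648 of 10141 of all genes). Without Fpr2f/f library 2 it was -0.26 with 0 calls and 3 such genes (8 and 544 of 10113 of all genes). Without Fpr2f/f library 3 there was 1 call (22 of 10108 of all genes). Rpl15, a protein of the large ribosomal subunit, had 387, 480 and 337 CPM in Fpr2f/f and 289, 284 and 214 CPM in Fpr2VKO (log2 fold change -0.63 ± 0.15, adjusted p = 0.189, edgeR). The summed level of this list was 13706, 28083 and 17679 CPM in Fpr2f/f and 12369 to 14694 CPM in Fpr2VKO libraries, highest in the library with the most shallow members. The median log2 fold change stayed below 0 among members with at least 10000 UMIs (-0.33, 8 genes at an unadjusted p under 0.05) and after thinning (-0.52, 2 such genes), with 0 calls in both. Among all genes, 525 of 9667 and 220 of 5061 had an unadjusted p under 0.05 in these settings.

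Absorptive genes held no call with all libraries, although several had a low p. Of 19 tested, 4 were higher and 1 lower at an unadjusted p under 0.05 (2.53% and 2.61% of all genes), and the median log2 fold change was 0.24. The median was 0.16 without Fpr2f/f library 2, 0.13 without Fpr2VKO library 2 and 0.12 without Fpr2VKO library 3, and 2 genes were called without Fpr2f/f library 1 (24 of 10141 of all genes). Aadac, an esterase of the endoplasmic reticulum, had 94.0, 57.8 and 58.5 CPM in Fpr2f/f and 129, 124 and 104 CPM in Fpr2VKO members (log2 fold change 0.75 ± 0.17, adjusted p = 0.103, edgeR). Vil1, whose promoter drives Cre in the mutant mice, had 160, 181 and 203 CPM and 214, 254 and 269 CPM (log2 fold change 0.42 ± 0.14, adjusted p = 0.544, edgeR). Reg3g, an antibacterial lectin, ran in the other direction, with 3776, 1845 and 2023 CPM in Fpr2f/f and 1034, 1345 and 1323 CPM in Fpr2VKO (log2 fold change -1.06 ± 0.29, adjusted p = 0.77, edgeR). The groups did not overlap for these 3 genes, which held for 9.92% of all genes tested.

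Stem and secretory genes held no call in the main test. In the stem list 0 of 20 genes passed and the median log2 fold change was 0.07, with Rnf43, an E3 ligase that dampens Wnt signalling, at 38.4, 30.2 and 48.4 CPM in Fpr2f/f and 45.3, 47.6 and 71.8 CPM in Fpr2VKO (log2 fold change 0.45 ± 0.19, adjusted p = 0.858, edgeR). The stem list median was -0.07 without Fpr2f/f library 1, 0.18 without Fpr2f/f library 3, 0.13 without Fpr2VKO library 1 and 0.00 without Fpr2VKO library 3. Olfm4 had a log2 fold change of 0.25 ± 0.17. Goblet and Paneth genes had a median of 0.62 over 14 genes and 0 calls, and their SE was large (median 0.83). Their median was 0.33 without Fpr2f/f library 1, 0.19 without Fpr2VKO library 2 (1 call) and 0.96 without Fpr2VKO library 1, where 3 genes were called and 6 were higher at an unadjusted p under 0.05. Among all genes, 8 of 10094 were called without Fpr2VKO library 2. Without Fpr2VKO library 1, 16 of 10087 were called and 513 had an unadjusted p under 0.05 in either direction. Agr2, a goblet cell disulfide isomerase, for instance had 516, 95.2 and 412 CPM in Fpr2f/f and 80.2, 827 and 1019 CPM in Fpr2VKO members, so each group held both low and high libraries.

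**Figure D5:**
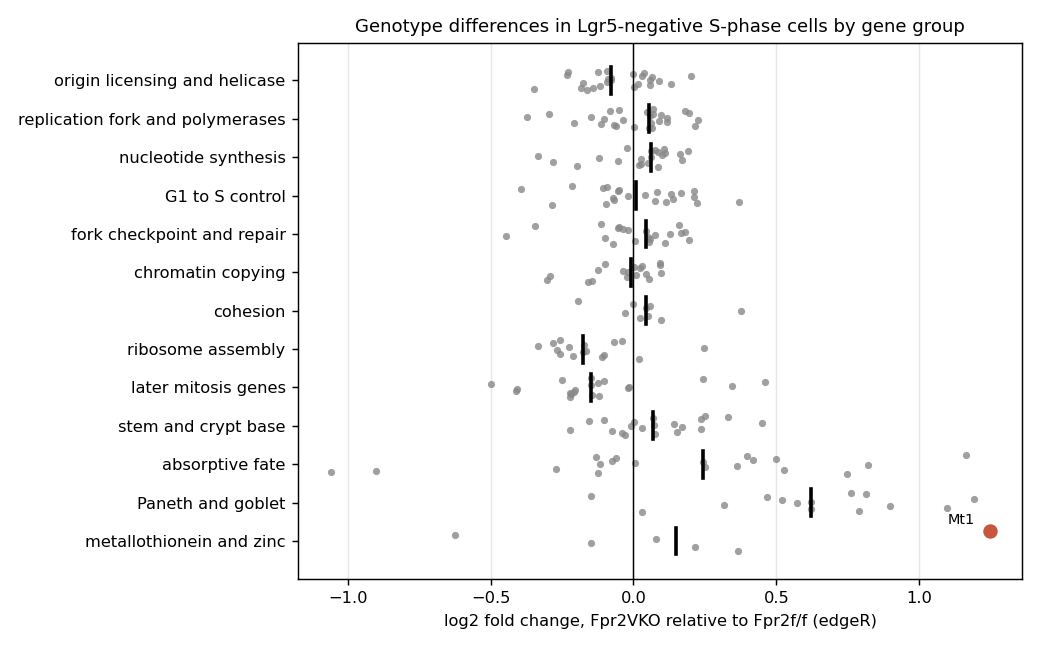
Log2 fold change between Fpr2VKO and Fpr2f/f in Lgr5-negative S-phase cells for the tested genes of each list (grey points, edgeR), with the list median as a black bar and the called gene in red. Mt1 at 1.25 is the called gene in the lists drawn (the immune list is not drawn), and the replication lists have medians from -0.08 to 0.06.

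Whether a genotype effect differed between S-phase and G2/M cells was tested directly with library as a block. Of 11406 genes, 1 (0.00877%) passed an adjusted p of 0.05, and 497 (4.36%) passed at an unadjusted p of 0.05, 258 with a higher (2.26%) and 239 with a lower (2.1%) effect in S-phase cells. The gene was Gip, which encodes an incretin hormone of enteroendocrine cells, with a difference of 6.12 ± 0.74 on the log2 scale (adjusted p = 7.74e-06, edgeR). It rested on few cells, since 423 of 432 UMIs in G2/M cells of Fpr2f/f library 1 and 192 of 259 in library 2 lay in 1 cell each, while members held 1 to 16 UMIs per library, most in Fpr2VKO library 1. Without that library the difference was 4.30 and was not called (adjusted p = 0.998, edgeR). No gene was called by edgeR once Fpr2f/f library 1 was left out (959 had an unadjusted p under 0.05), nor by DESeq2 on all libraries (125 had one).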

How the data were processed

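Single-cell RNA sequencing libraries of EpCAM-sorted ileal crypt cells from 3 Fpr2f/f and 3 Fpr2VKO samples were analysed, with groups and replicate numbers from the sample titles. The deposited files were matrices of UMI counts per gene and barcode, made by the authors with MobiVision from alignments to mm10, before any calling of cells. The submitters' notes also name Seurat (4.0 and 4.0.0), and the study removed doublets and normalized counts after these matrices with limits that are not given in the sources used here.

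The cell rule was applied to all barcodes. UMI counts were summed per library and class and tested with the edgeR 4.0.16 quasi-likelihood test (R 4.3.3, TMM, filterByExpr, robust fit, no covariate). An adjusted p (Benjamini-Hochberg over all genes tested) under 0.05 was a call. The SE of an edgeR log2 fold change was its absolute value divided by the square root of the F statistic. It does not describe the spread between cells for genes carried by single cells. CPM were UMIs per 1000000 summed UMIs, without TMM. Shares were compared by exact permutation tests over libraries. Doublets were scored with 25% artificial doublets and the top 0.8% per 1000 cells marked. They were kept, and left out in an alternative. Thinning used 5000 UMIs per cell, and shallower cells were left out of thinned shares, 7 to 22 members per library. Intervals and floors (3 counts for a count of 0) cover counting error only. The edgeR step was tested on simulated counts. DESeq2 1.42.0, filters, mitochondrial limits, depth, doublets, rule limits, a replicate block and leaving out each library were alternatives. Positions and promoters came from GRCm38 tables.

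Named genes were Fpr2, called genes, the 20 leading genes outside the rule by ratio to other cells, and for each list up to 4 others with the lowest p or highest level. The members, lists and this rule were chosen with earlier results of these data known. Replicates differed by more than sampling noise in all pairs.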

Additional observations from a re-analysis of the deposited data

Results flagged for a closer look

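Gip was singled out because its genotype effect differed between Lgr5-negative S-phase cells and Lgr5-negative G2/M cells by the test of that difference (6.12 on the log2 scale, edgeR with the library as a block). The fitted value in G2/M cells was -4.39 ± 1.2, with 66.4, 23.5 and 5.98 CPM in Fpr2f/f and 2.22, 1.19 and 1.15 CPM in Fpr2VKO libraries. In the S-phase cells Gip had 1.25, 0.520 and 0.461 CPM in Fpr2f/f and 6.41, 0.445 and 0.677 CPM in Fpr2VKO libraries, too few counts for the genotype test there, and Fpr2VKO library 1 held 16 of its UMIs. Without Fpr2VKO library 1 the difference was 4.30 (adjusted p = 0.998, edgeR). In the G2/M class, 1 cell of Fpr2f/f library 1 held 423 Gip UMIs and 1 cell of Fpr2f/f library 2 held 192.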

How the results depend on the processing

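The difference in the share of Lgr5-negative S-phase cells, -0.01 points, was near 0. It was -1.80 under a mitochondrial limit of 10%, -1.74 in cells with at least 10000 UMIs, -0.931 after thinning and -0.159 under a limit of 40%, and turned positive with an S-phase sum of at least 0.1% (0.182), mitotic sums under 0.05% (0.0604) or 0.2% (0.0513), and without cells with at least 10 immune UMIs (0.0466, chosen after seeing the data). Leaving out 1 library gave -0.810 to 0.677. The share among cycling cells ranged from -5.49 to 0.371 when 1 library was left out. The share of G2/M cells, 2.12 points higher in Fpr2VKO, turned to -5.85 under a mitochondrial limit of 10%, -1.97 in cells with at least 10000 UMIs and -0.354 after thinning.

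The count of genes called between genotypes, 4, was 60 without the filter on low counts, 0 under a mitochondrial limit of 10% (333 at an unadjusted p under 0.05, with most members left out) and 7 under 40%. It was 3 without predicted doublets, where Mt1 was called with Ces1f and Clec2h. There Cd3e, Cd3d and Ikzf2 did not pass the filter on low counts and were not tested. It was 1 among members with at least 10000 UMIs, 2 after thinning, 2 with an S-phase sum of at least 0.3% and 1 without the immune cells, and 6 to 24 when 1 library was left out, lowest without Fpr2VKO replicate 3 and highest without Fpr2f/f replicate 1. DESeq2 called 6. Same-numbered libraries did not deviate together (correlations of -0.04, 0.01 and 0.11, and 2 of 6 libraries correlated best with their own number). With 3 libraries per group this cannot exclude a pairing of the samples. The replicate block gave 36 calls, of which 2 were absorptive genes and 2 genes of the study's immature and ribosomal list. The difference of the genotype effect between classes gave 0 calls with DESeq2 (125 at an unadjusted p under 0.05), 10 without the filter, 0 under mitochondrial limits of 10% and 40% (362 and 542 at an unadjusted p under 0.05), and 0 to 6 when 1 library was left out, 0 without Fpr2f/f replicate 1 and 6 without Fpr2f/f replicate 2. The cause of these changes was not tested, except that the calls lost without the immune cells rest on those cells.

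Mt1 kept its direction in all 17 alternatives. Cd3e and Cd3d were not called without Fpr2f/f replicate 2 (adjusted p = 0.0629 and 0.0836, edgeR), Ikzf2 was not called without any 1 of the Fpr2VKO libraries (0.119 to 0.136) although its log2 fold change stayed at -3.90 to -4.14, and adjusted p-values over all settings that tested them ran up to 0.0629, 0.0836 and 0.136. The medians of the ribosome assembly and study cell cycle lists stayed below 0 in 17 of 17 settings, that of origin licensing was above 0 in 2 of 17, and that of absorptive genes was -0.10 with an S-phase sum of at least 0.3%. At that S-phase limit members were only 0.167% of kept cells in Fpr2f/f library 2 and 0.581% in Fpr2VKO library 3, so its values rest on few cells. The settings reuse the same libraries, so a constant sign is no independent evidence. The study cell cycle list was also chosen by the study here and holds genes of the rule. Without the filter on low counts, 2 absorptive genes and 2 of the immature and ribosomal list were called, and under a mitochondrial limit of 40% 1 absorptive gene was. The goblet and Paneth median, 0.62, was 1.96 under a limit of 10%, 1.62 with an S-phase sum of at least 0.3% and 0.32 without predicted doublets. The limits of 10% and 0.3% each left out most members. The median of metallothionein and zinc genes, 0.15, was 0.85 over 4 genes after thinning.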

Other observations

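Lists not described above held few changes. Of 5 tested interferon response genes, Oasl2, an antiviral gene, had 5.85, 2.60 and 3.69 CPM in Fpr2f/f and 8.42, 9.34 and 23.7 CPM in Fpr2VKO members (log2 fold change 1.64 ± 0.42, adjusted p = 0.247, edgeR), and Irgm1, a GTPase of cell-autonomous immunity, had 33.4, 33.8 and 17 CPM and 7.62, 19.6 and 7.45 CPM with overlapping groups (log2 fold change -1.26 ± 0.40, adjusted p = 0.77, edgeR). Irgm1 was called without Fpr2VKO library 2. The list median was -0.07, and it was above 0 without any 1 of the Fpr2f/f libraries, 0.38 without Fpr2VKO library 1 and 0.22 without Fpr2VKO library 3. In this list 1 gene was called without Fpr2f/f library 3, 1 under the replicate block and 2 without the filter on low counts. Stress and immediate early genes had 0 calls among 11 tested and a median of -0.12, which was -0.02 without Fpr2f/f library 2, -0.26 without Fpr2f/f library 3, -0.23 without Fpr2VKO library 2 and 0.07 without Fpr2VKO library 3. Under a mitochondrial limit of 10% it was 0.47 with 4 genes higher at an unadjusted p under 0.05, and 1 gene was called with an S-phase sum of at least 0.3%. Each of these limits left out most members. Fos, an immediate early transcription factor, was lower in members (247 CPM) than in other cells (690 CPM) in all 6 libraries. Notch and secretory fate genes had 0 calls among 8 tested, and Hes1, a Notch target, had 127 to 191 CPM in members of all libraries. In the enteroendocrine and tuft list 1 of 10 genes could be tested, with a log2 fold change of 0.59 and no call. Dclk1, a tuft cell marker, was too low to be tested in members, and 18 of its 25 UMIs in Fpr2VKO library 1 lay in 1 cell.

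Outside the lists, the genes with the next lowest p between genotypes in Lgr5-negative S-phase cells missed the threshold. They were named after their values were seen. Their groups did not overlap, which held for 9.92% of all genes tested. Without the 4 cells with at least 10 immune UMIs, the edgeR adjusted p was 0.125 for Erh and 0.127 for Bcl2l15 and Sult1d1. Erh, a small conserved nuclear protein, had 151, 145 and 117 CPM in Fpr2f/f and 87.4, 95.6 and 69.0 CPM in Fpr2VKO (log2 fold change -0.72 ± 0.15, adjusted p = 0.0727, edgeR). Bcl2l15 had 96.9, 108 and 99.5 CPM and 70.5, 61.8 and 54.8 CPM (log2 fold change -0.70 ± 0.15, adjusted p = 0.0727). Sult1d1, a sulfotransferase, had 107, 107 and 115 CPM and 183, 194 and 141 CPM (log2 fold change 0.65 ± 0.14, adjusted p = 0.083), and in Lgr5-negative G2/M cells its log2 fold change was 0.84 ± 0.13 (adjusted p = 0.0405, edgeR). The difference between those effects was -0.18 ± 0.13 (adjusted p = 1.00).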
